A study of Mus musculus with 20 samples.

Results

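Insulin and the insulin-like growth factors act through a cascade of kinases, lipid kinases and their brakes, and the genes described here are its PI3K, AKT and mTOR components. They are 37 genes, 23 that carry the signal forward (activators) and 14 that hold it back or are switched off by it (inhibitors), out of 30063 genes with a named probe set on the array. They were chosen by name and function, and for each the probe set with a single gene symbol and the highest mean was used where it lay above the median of all probe sets on at least 4 arrays. Of the 37 genes, 34 had a named probe set and 33 passed that filter, 20 activators and 13 inhibitors. The catalytic subunit gene Pik3cd was measured at 4.46 to 4.70 on the log2 scale, below the filter. Rps6kb1 and Mapk3 had no probe set in the probe table used here, and the probe set of Akt1s1 was shared with a microRNA gene, so these 3 were not analysed.

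Total RNA of whole mouse pancreas was measured on Affymetrix arrays, at embryonic day 18.5 (E18.5) and on the day of birth (P0), in C57BL/6J mice lacking the insulin inhibitory receptor inceptor (Iir -/-) and in wild types (Iir +/+) of the same strain. There were 5 knockout and 4 wild-type arrays at E18.5 and 6 knockout and 5 wild-type arrays at P0. Dams had been without food for 2 h when embryos were taken, and newborn pups for 5 h, so fasting and age cannot be told apart, nor can the running sample number, which is lower in every P0 sample. Sex was not determined, the labels name no promoter or Cre restriction of the deletion, and they do not say whether arrays come from separate animals or litters. The p-values therefore measure the spread between these samples. Values are log2 signals, normalised across arrays by the submitters. A difference of 1 is a doubling, and the level of 1 probe set is not read against that of another. Where a pair of genes is set side by side, what is compared is how their difference within an array moved between groups. A gene was called when its p-value from limma, adjusted over all 17993 genes tested, was under 0.05, and differences are given ± SE of that fit.

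In the textbook cascade, an activated receptor phosphorylates the insulin receptor substrates, which recruit class I PI3K. The lipid it makes brings PDK1 and AKT to the membrane, where PDK1 and the Rictor-containing mTOR complex switch AKT on. AKT inactivates the TSC complex, GSK3 and the FOXO factors, and with TSC silenced the small GTPase Rheb drives the Raptor-containing mTOR complex and protein synthesis. In the pancreas the same cascade is known for its part in beta cell growth and in the supply of digestive enzymes. Inceptor, encoded by Elapor1, is known as a receptor that dampens insulin and IGF1 receptor signalling in beta cells. Transcript levels do not show the phosphorylation state of any of these proteins.

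The deleted gene matched the labels. Elapor1 was lower in knockouts by a log2 difference of -5.55 ± 0.19 at E18.5 (limma, adjusted p = 4.13e-12) and -5.49 ± 0.18 at P0 (limma, adjusted p = 8.1e-13), and no knockout array overlapped a wild-type one. The arrays were alike in scale, with medians of 4.81 to 4.94, and the lowest correlation between any pair was 0.979 over all probe sets. Acinar enzyme genes such as Cpa1 and Ctrb1 were at the ceiling of the scale on all arrays, which fitted the labelled tissue. Markers of intestine or muscle were high on 5 arrays, with a mean above 7 for at least 1 of these tissues. These were E18.5 knockouts 1, 2 and 4, E18.5 wild type 4 and P0 knockout 4. E18.5 knockout 1 was above 7 for both tissues, at 7.28 for intestine and 7.48 for muscle. Its nerve marker mean, 7.60, was also the highest of all arrays. Liver marker means ran from 7.91 to 13.99 over all arrays.

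Promoter sequences are shown for 4 members: Tsc1 and Rictor, which rose after birth in both genotypes, Foxo3, which rose in knockouts, and Irs2, the most variable member. Each is the 250 bases before the annotated start, read 5′ to 3′ along the gene's strand from RefSeq on assembly GRCm38.p6. Capitals mark matches, on either strand, to the cAMP response element core TGACG, the E-box CACGTG and the GC box GGGCGG, so that the reverse complements of the first and last also appear. The FOXO motif GTAAACA was searched in the same way and had no match in these 4.
Tsc1, chr2:28640983-28641232, + strand: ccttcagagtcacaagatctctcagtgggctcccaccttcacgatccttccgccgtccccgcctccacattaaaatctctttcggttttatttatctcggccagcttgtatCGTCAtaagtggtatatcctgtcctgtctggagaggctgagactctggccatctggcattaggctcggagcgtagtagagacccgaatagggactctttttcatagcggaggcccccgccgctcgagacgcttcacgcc
Rictor, chr15:6708131-6708380, + strand: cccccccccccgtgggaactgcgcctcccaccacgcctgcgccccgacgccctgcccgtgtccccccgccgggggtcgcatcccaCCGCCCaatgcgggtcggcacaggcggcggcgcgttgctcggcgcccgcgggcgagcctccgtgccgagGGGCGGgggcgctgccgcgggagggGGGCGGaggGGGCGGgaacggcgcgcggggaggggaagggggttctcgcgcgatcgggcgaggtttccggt
Foxo3, chr10:42276696-42276945, - strand: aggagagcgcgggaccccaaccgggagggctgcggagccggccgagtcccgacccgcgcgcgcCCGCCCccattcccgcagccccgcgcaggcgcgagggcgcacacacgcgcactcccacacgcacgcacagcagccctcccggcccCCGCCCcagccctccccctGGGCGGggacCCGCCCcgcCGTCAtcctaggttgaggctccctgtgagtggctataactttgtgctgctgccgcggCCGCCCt
Irs2, chr8:11008930-11009179, - strand: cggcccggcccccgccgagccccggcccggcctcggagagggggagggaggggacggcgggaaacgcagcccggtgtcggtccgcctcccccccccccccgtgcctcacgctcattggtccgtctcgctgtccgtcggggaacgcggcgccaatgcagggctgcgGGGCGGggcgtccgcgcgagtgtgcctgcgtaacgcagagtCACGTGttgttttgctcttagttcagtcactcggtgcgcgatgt
The windows differed in base composition. Tsc1 had 54.4% G or C with 1 TGACG match and no GC box, whereas Rictor had 81.2% with 4 GC boxes. Foxo3 had 76.4% with 5 GC boxes and 1 TGACG match, and Irs2 had 72.8% with 1 E-box and 1 GC box. Of 32851 mouse promoters of this length, 17.8% held TGACG, 6.02% the E-box, 32.7% the GC box and 3.17% the FOXO motif. A promoter was found for 31 members, some with several starts, 43 promoters in all. Of the 43, 16 held TGACG (37.2%), 3 the E-box (6.98%), 26 the GC box (60.5%) and 1, of Akt1, the FOXO motif (2.33%). Members' promoters had a median of 60.4% G or C against 52.4% for all promoters. A match is a run of letters and does not show that a factor binds there.

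The first question was how the cascade changed across birth. In wild-type pancreas 3 of 33 members passed the test: Rictor and Tsc1 rose and Eif4ebp1 fell from E18.5 to P0. That share of 9.09% stood beside 8.86% of all genes tested (4.76% higher and 4.1% lower). In knockouts 8 of 33 members passed, or 24.2% beside 23% of all genes tested. Tsc1, Rictor, Foxo3, Phlpp1 and Pik3r1 rose (11.3% of all genes did) and Eif4ebp1, Gsk3a and Mlst8 fell (11.7% of all genes). Both shares lay near those of all genes. Without adjustment, p was under 0.05 for 6 of 33 members in wild types and 10 of 33 in knockouts, beside 24.4% and 34.9% of all genes. The size of the members' age difference had a median of 0.086 in wild types, against 0.158 over all genes, and of 0.111 against 0.175 in knockouts. Rictor, Tsc1 and Eif4ebp1 passed in both genotypes in the same direction, 3 of 33 members, where 6.72% of all genes did so. The wild-type and knockout age comparisons share no array, but each gene's spread was estimated from all arrays together. Fasting time and running sample number also differ with age in both.

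**Figure D1:**
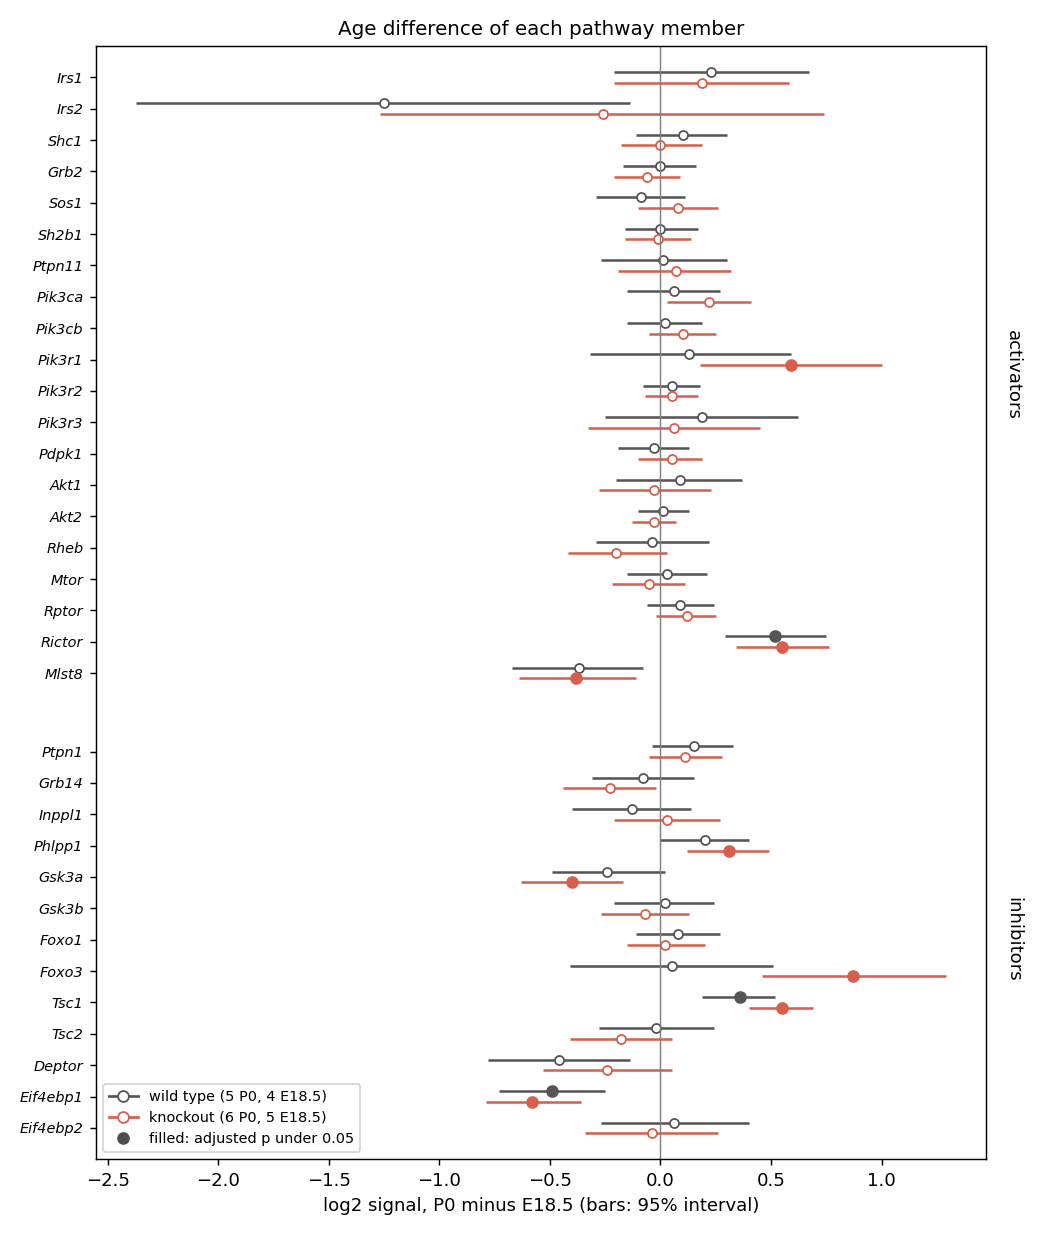
Difference between P0 and E18.5 in log2 signal (x axis) of each of the 33 members (y axis), in wild type (grey, 5 against 4 arrays) and knockout (red, 6 against 5 arrays), with 95% intervals as bars. Filled points passed the test: 3 in wild type and 8 in knockout, with Rictor, Tsc1 and Eif4ebp1 filled in both.

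Activators and inhibitors were also counted apart, and no test was made between them. In wild types 1 of 20 activators, or 5%, and 2 of 13 inhibitors, or 15.4%, passed, beside 8.86% of all genes. In knockouts 3 activators, or 15%, and 5 inhibitors, or 38.5%, passed, beside 23% of all genes. The median difference of the activators was 0.025 in wild types and 0.05 in knockouts, and that of the inhibitors was 0.017 and -0.041. The mean signal over the 20 activators ran from 7.47 to 7.67 in E18.5 wild types, 7.57 to 7.65 in E18.5 knockouts, 7.53 to 7.67 in P0 wild types and 7.58 to 7.70 in P0 knockouts. The mean over the 13 inhibitors ran from 7.98 to 8.10, 7.88 to 8.13, 7.91 to 8.17 and 7.96 to 8.17 in the same order. The 4 groups overlapped in both means.

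At the top of the cascade, the receptor substrates and adaptors gave no call for age in either genotype. Irs2, a substrate of the insulin receptor that is prominent in beta cells and liver, had the widest spread. Its E18.5 wild-type arrays read 11.35, 11.75, 12.24 and 10.29, and its E18.5 knockout arrays 12.40, 12.04, 10.86, 10.88 and 10.92. At P0 the wild types read 9.90, 10.04, 10.57, 9.46 and 10.77, and the knockouts ran from 9.98 to 12.62 with a median of 10.84. The P0 wild types were the lowest group on average, and E18.5 wild type 4 and some P0 knockouts lay among them. Irs2 differed between ages by -1.25 ± 0.53 in wild types (limma, adjusted p = 0.15) and by -0.26 ± 0.48 in knockouts (limma, adjusted p = 0.751). Irs1, the other substrate, ran from 5.43 to 6.69 over all arrays and differed by 0.23 ± 0.21 and 0.19 ± 0.19. Shc1, Grb2 and Sos1, which link receptors to Ras, Sh2b1, an adaptor of the receptor kinase, and Ptpn11, the phosphatase SHP2, had age differences between -0.09 and 0.10 in both genotypes. Sh2b1 lay close to the array medians, at 5.29 to 5.72.

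Among the PI3K subunits, the regulatory subunit gene Pik3r1, which encodes p85 alpha, rose with age in knockouts. It read 10.47, 10.47, 10.20 and 10.45 in E18.5 wild types and 10.19, 10.27, 10.34, 10.28 and 10.73 in E18.5 knockouts. The P0 wild types read 10.45, 10.35, 10.82, 9.84 and 11.19, and the P0 knockouts ran from 10.51 to 11.35 with a median of 10.98. Of the P0 knockouts, 2 lay below the highest E18.5 knockout, and the P0 wild types ran from below every E18.5 array to within the range of the P0 knockouts. The difference was 0.59 ± 0.20 in knockouts, a 1.5-fold rise (limma, adjusted p = 0.037), and 0.13 ± 0.22 in wild types (limma, adjusted p = 0.769). The Pik3r1 call was lost without any 1 of E18.5 knockouts 1 to 4 or of P0 knockouts 1, 3, 4 and 6. It was also lost with no signal filter (limma, adjusted p = 0.0533) and with the replicate number as a block (limma, adjusted p = 0.0832). The catalytic subunit gene Pik3ca, encoding p110 alpha, read 8.54, 8.43, 8.47 and 8.47 in E18.5 wild types and 8.36, 8.44, 8.42, 8.48 and 8.12 in E18.5 knockouts. At P0 it read 8.57, 8.44, 8.40, 8.50 and 8.76 in wild types and ran from 8.37 to 8.89, with a median of 8.56, in knockouts. Its groups overlapped throughout, and its age difference in knockouts was 0.22 ± 0.09 (limma, adjusted p = 0.0868), or 0.27 without P0 knockout 4 (limma, adjusted p = 0.0444). Pik3cb, Pik3r2 and Pik3r3 had age differences between 0.02 and 0.19 and no call.

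The AKT level showed small differences. Pdpk1, the kinase that phosphorylates AKT in its activation loop, differed with age by -0.03 ± 0.08 in wild types and 0.05 ± 0.07 in knockouts. Akt1 differed by 0.09 ± 0.14 and -0.03 ± 0.12. Akt2, the AKT gene best known for glucose uptake, differed by 0.01 ± 0.05 and -0.03 ± 0.05, and its 95% intervals ran from -0.10 to 0.13 and from -0.13 to 0.07. Of the phosphatases that act against this step, Phlpp1, which dephosphorylates AKT, rose in knockouts. It read 6.81, 6.54, 6.69 and 6.55 in E18.5 wild types and 6.68, 6.77, 6.78, 6.55 and 6.93 in E18.5 knockouts. Its P0 wild types read 6.89, 6.71, 6.99, 6.61 and 7.05, and values ran from 6.96 to 7.23 with a median of 7.01 in knockouts. All P0 knockouts lay above all E18.5 knockouts, while the wild types of the 2 ages overlapped. The rise was 0.31 ± 0.09, or 1.24-fold (limma, adjusted p = 0.0159), beside 0.20 ± 0.10 in wild types (limma, adjusted p = 0.207). Without E18.5 knockout 4 the adjusted p of Phlpp1 was 0.0514. Inppl1, the lipid phosphatase SHIP2, differed by -0.13 ± 0.13 and 0.03 ± 0.12.

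The inhibitors that AKT switches off divided. Foxo3, a transcription factor excluded from the nucleus by AKT, read 7.42, 7.34, 7.39 and 7.30 in E18.5 wild types and 7.02, 6.93, 7.20, 7.32 and 7.30 in E18.5 knockouts. At P0 it read 7.31, 7.39, 7.76, 6.64 and 7.97 in wild types and ran from 7.61 to 8.56 with a median of 7.89 in knockouts. The P0 knockouts all lay above the E18.5 knockouts, and the P0 wild types spread from the lowest value of all into the range of the knockouts. Foxo3 rose in knockouts by 0.87 ± 0.20, or 1.83-fold (limma, adjusted p = 0.00413), and differed by 0.05 ± 0.22 in wild types (limma, adjusted p = 0.936). The test of the difference between these gave 0.83 ± 0.30 (limma's moderated test, adjusted p = 0.634) and did not pass. Foxo1, its relative with known roles in beta cells, differed by 0.08 ± 0.09 in wild types and 0.02 ± 0.08 in knockouts. Gsk3a, a kinase that restrains glycogen synthesis, read 8.59, 8.46, 8.38 and 8.41 in E18.5 wild types and 8.31, 8.49, 8.34, 8.55 and 8.55 in E18.5 knockouts. Its P0 wild types read 8.35, 8.12, 7.91, 8.46 and 8.29, and its P0 knockouts ran from 7.79 to 8.43 with a median of 8.01. Most P0 knockouts lay below the E18.5 knockouts, with 1 among them. Gsk3a fell by 0.40 ± 0.11 in knockouts, or 1.32-fold (limma, adjusted p = 0.0131), and differed by -0.24 ± 0.12 in wild types (limma, adjusted p = 0.245). Gsk3b differed by 0.02 ± 0.11 and -0.07 ± 0.10.

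The TSC complex gave the call with the lowest p-value among the members. Tsc1, its scaffold hamartin, read 6.24, 6.35, 6.20 and 6.26 in E18.5 wild types and 6.35, 6.46, 6.33, 6.30 and 6.45 in E18.5 knockouts. In P0 wild types it read 6.49, 6.45, 6.82, 6.54 and 6.80, and the P0 knockouts ran from 6.78 to 7.02 with a median of 6.92. In each genotype every P0 array lay above every E18.5 array. Tsc1 rose by 0.36 ± 0.08, or 1.28-fold, in wild types (limma, adjusted p = 0.00945) and by 0.55 ± 0.07, or 1.46-fold, in knockouts (limma, adjusted p = 6.66e-05). In wild types the adjusted p was 0.061 when only these 9 arrays were fitted, and in knockouts Tsc1 passed in each alternative tried, with adjusted p of at most 0.0271. Tsc2, the GTPase-activating partner tuberin, differed by -0.02 ± 0.12 and -0.18 ± 0.11, with no call. The groups of Tsc2 overlapped in both genotypes.

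In the mTOR complexes, Rictor rose and Mlst8 was lower. Rictor, the defining subunit of mTOR complex 2, read 7.42, 7.42, 7.42 and 7.40 in E18.5 wild types and 7.39, 7.47, 7.50, 7.61 and 7.53 in E18.5 knockouts. The P0 wild types read 7.79, 8.07, 8.15, 7.65 and 8.02, and the P0 knockouts ran from 7.73 to 8.24 with a median of 8.15. Ages did not overlap in either genotype. Rictor rose by 0.52 ± 0.11 in wild types, or 1.44-fold (limma, adjusted p = 0.00775), and by 0.55 ± 0.10 in knockouts, or 1.46-fold (limma, adjusted p = 0.000841). With the running sample number as a covariate Rictor differed by 0.43 in wild types (limma, adjusted p = 0.133) and 0.44 in knockouts (limma, adjusted p = 0.106). That number is lower in every P0 sample, so this fit cannot tell it apart from age. Rptor, the defining subunit of mTOR complex 1, differed by 0.09 ± 0.07 and 0.12 ± 0.06, with no call, and Mtor by 0.03 ± 0.09 and -0.05 ± 0.08. Mlst8, a subunit of both complexes, read 7.05, 7.12, 6.53 and 6.60 in E18.5 wild types and 6.72, 6.78, 6.85, 6.81 and 6.88 in E18.5 knockouts. At P0 it read 6.44, 6.56, 6.14, 6.59 and 6.56 in wild types and ran from 6.21 to 6.84 with a median of 6.36 in knockouts. The wild-type ages overlapped through the lowest E18.5 array, and 1 P0 knockout lay among the E18.5 knockouts. Mlst8 fell by 0.38 ± 0.13 in knockouts, or 1.3-fold (limma, adjusted p = 0.039), with -0.37 ± 0.14 in wild types (limma, adjusted p = 0.105). In wild types it passed with the running sample number as a covariate, at -0.7 (limma, adjusted p = 0.0334). The knockout call was lost without any 1 of the 5 E18.5 knockouts or of P0 knockouts 1, 4, 5 and 6. The same held with no signal filter (limma, adjusted p = 0.0562) and with the replicate number as a block (limma, adjusted p = 0.0821). Rheb differed by -0.04 ± 0.12 and -0.20 ± 0.11.

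Downstream of mTOR complex 1, Eif4ebp1 encodes a repressor of cap-dependent translation that mTOR inactivates. It read 10.19, 9.93, 9.86 and 9.69 in E18.5 wild types and 10.11, 9.98, 9.74, 10.02 and 10.21 in E18.5 knockouts. The P0 wild types read 9.53, 9.67, 9.11, 9.52 and 9.31, and values ran from 9.32 to 9.51 with a median of 9.44 in knockouts. All P0 arrays were lower than all E18.5 arrays of the same genotype, by a narrow margin in wild types. Eif4ebp1 fell by 0.49 ± 0.11 in wild types, or 1.4-fold (limma, adjusted p = 0.0138), and by 0.58 ± 0.10 in knockouts, or 1.49-fold (limma, adjusted p = 0.00077). In wild types the adjusted p was 0.0591 without E18.5 wild type 1 and 0.0723 with only these 9 arrays. Eif4ebp2, the related repressor, differed by 0.06 ± 0.16 and -0.04 ± 0.14. Deptor, which binds and inhibits both mTOR complexes, differed by -0.46 ± 0.15 in wild types (limma, adjusted p = 0.069) and -0.24 ± 0.14 in knockouts (limma, adjusted p = 0.233). Wild-type Deptor values lay between 8.45 and 8.92 before birth and between 7.80 and 8.50 after it. Without E18.5 knockout 1, Deptor passed in wild types (limma, adjusted p = 0.0341) and in knockouts (limma, adjusted p = 0.0466), and without P0 wild type 5 in wild types (limma, adjusted p = 0.0435). At the receptor, Ptpn1, the phosphatase PTP1B, differed by 0.15 ± 0.09 and 0.11 ± 0.08, and Grb14, which blocks the receptor kinase, by -0.08 ± 0.11 and -0.23 ± 0.10, with no call for either. Grb14 passed in knockouts without P0 knockout 2 (limma, adjusted p = 0.0214).

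**Figure D2:**
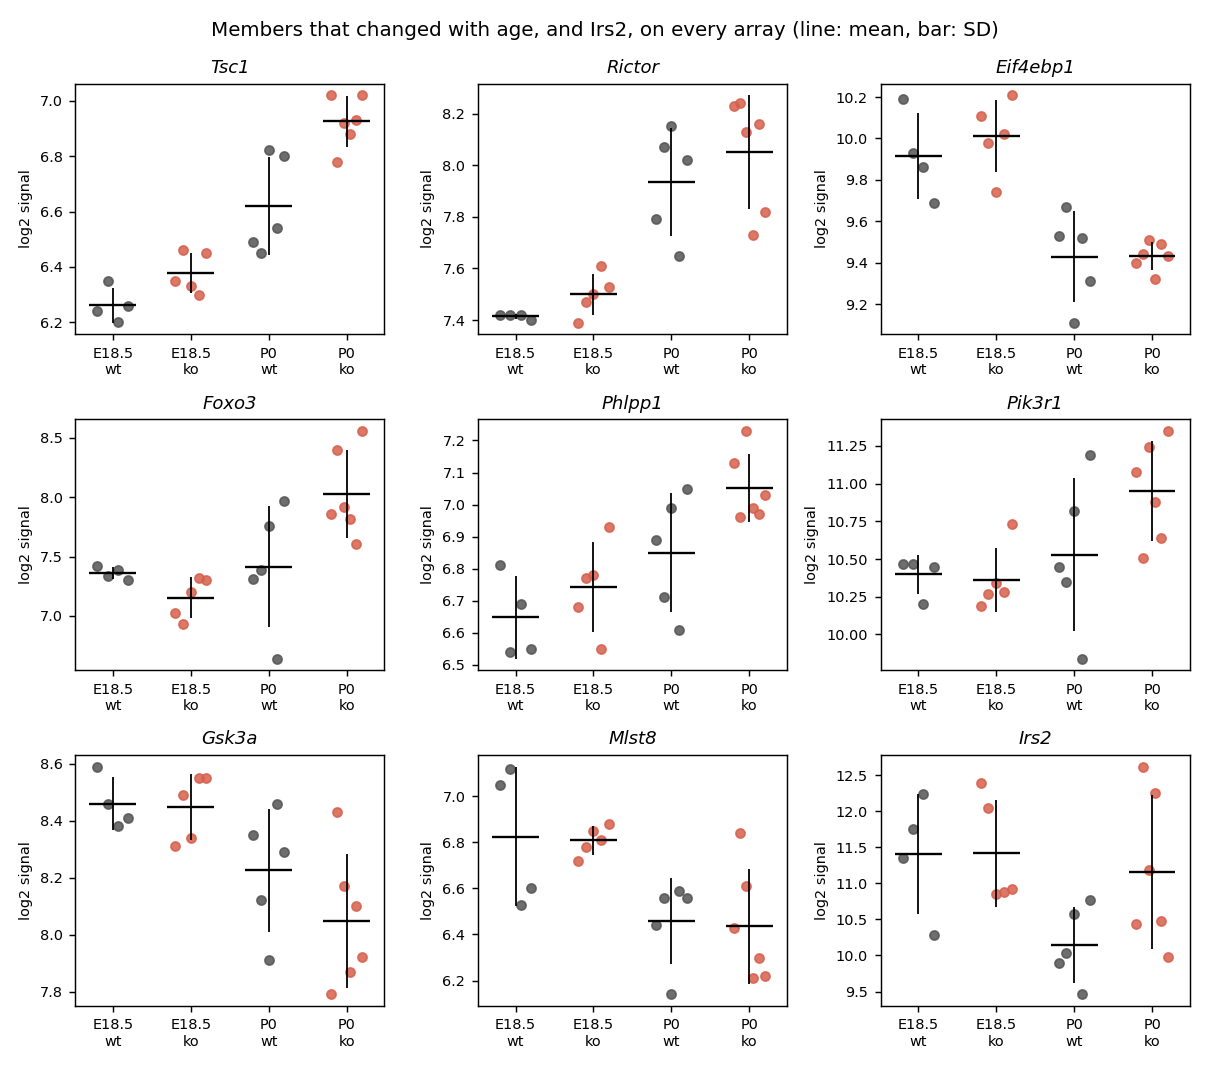
Log2 signal (y axis) of the 8 members that passed an age test, and of Irs2, on every array of the 4 groups (x axis), wild type in grey and knockout in red, with the mean as a line and the SD as a bar. Tsc1, Rictor and Eif4ebp1 separate the ages in both genotypes, Foxo3 and Phlpp1 separate them in knockouts, and the remaining 4 overlap.

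Arrays did not overlap between ages for 3 members in wild types (2 higher and 1 lower), beside 11.6% of all genes (6.24% higher and 5.36% lower), and for 5 in knockouts (4 higher and 1 lower), beside 12.4% of all genes (5.9% and 6.55%). Levels of cell type markers moved with age as well. The acinar marker mean ran from 14.90 to 15.44 in E18.5 wild types and from 14.12 to 14.60 in P0 wild types, and from 15.14 to 15.47 and from 13.92 to 14.67 in knockouts. Of the 8 acinar genes, Cpa1 and Ctrb1 sat at the array's ceiling in every group and Cela1 and Cela2a close below it. The lower mean at P0 came from the transcription factor genes Ptf1a, Rbpjl and Bhlha15, while Nr5a2 averaged 9.86 and 10.21 in wild types and 10.09 and 9.73 in knockouts at E18.5 and P0. Ptf1a averaged 11.88 and 8.85 in wild types, and 12.09 and 9.09 in knockouts. Mesenchyme markers (6 genes) ran from 11.29 to 11.54 before and 11.55 to 11.86 after birth in wild types, and from 10.75 to 11.33 and 11.31 to 12.09 in knockouts. Fn1 moved most, averaging 11.27 and 12.10 in wild types and 10.53 and 11.98 in knockouts at E18.5 and P0. Lum (13.12 and 13.22, 12.99 and 13.02) and Pdgfrb (7.64 and 7.75, 7.66 and 7.70) moved little in wild types and knockouts. Macrophage markers (5 genes) ran from 6.85 to 7.08 and from 7.04 to 7.36 in wild types, and from 6.31 to 6.98 and from 7.01 to 7.33 in knockouts. These genes did not move together. Cd68 averaged 8.26 and 9.45 in wild types at E18.5 and P0, and 8.30 and 8.94 in knockouts, and Mrc1 and Csf1r were also higher at P0. C1qa averaged 5.19 and 4.56 in wild types and 4.75 and 4.78 in knockouts. Adgre1 averaged 5.79 and 5.68 in wild types and 5.65 and 5.69 in knockouts. The part of these shifts in the age differences of members was not tested, and fewer cells of a type and less RNA per cell cannot be told apart in whole tissue. Intestine markers (5 genes) ran from 5.19 to 9.28 in E18.5 knockouts and from 5.02 to 6.64 in P0 knockouts. With liver, intestine and muscle marker means as covariates, 3 members passed in knockouts, with adjusted p of 0.00446 for Tsc1, 0.0105 for Rictor and 0.0109 for Eif4ebp1. Leaving out the 5 arrays rich in intestine or muscle markers left 2 E18.5 knockouts, 3 E18.5 wild types, 5 P0 knockouts and 5 P0 wild types. E18.5 knockout 5, which was kept, had a liver marker mean of 13.54. With the arrays left, 2 members passed in knockouts, at limma adjusted p = 0.0271 for Tsc1 and 0.0374 for Rictor. The other 6 kept their direction. Of these, 4 had differences of similar size, -0.52 for Eif4ebp1 (limma, adjusted p = 0.0791), 0.82 for Foxo3 (adjusted p = 0.165), -0.36 for Gsk3a (adjusted p = 0.255) and -0.39 for Mlst8 (adjusted p = 0.275). Phlpp1, at 0.21 (limma, adjusted p = 0.401), and Pik3r1, at 0.43 (adjusted p = 0.495), were smaller. In wild types the same fit gave adjusted p of 0.0414 for Tsc1, 0.0211 for Rictor and 0.0232 for Eif4ebp1.

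The second question was whether loss of inceptor changed the cascade. No member passed the test at E18.5 or at P0, where 0.0111% of all genes did so in each case, nor averaged over both ages, where 0.0167% of all genes did. None passed for the difference of the genotype effect between ages, where 0% of all genes did. At E18.5, 17 members were above 0 and 16 below, with a median difference of 0.001 against 0.02 for all genes, and values from -0.25 to 0.19. At P0, 18 were above 0 and 15 below, with a median of 0.007 against 0.005, and values from -0.37 to 1.01. Activators (10 above and 10 below at E18.5, 11 and 9 at P0) and inhibitors (7 and 6 at both ages) were both split near evenly. Without adjustment, p was under 0.05 for 0 of 33 members at E18.5, where 5.45% of all genes were. At P0 it was 7 of 33, a larger share than the 8.76% of all genes. Averaged over ages it was 5 of 33, also a larger share than the 6.56% of all genes, and for the difference between ages 1 of 33, beside 6.98%. The 95% interval of a single member, not adjusted for the number of genes, reached 0.23 to either side in the median member at E18.5 and 0.21 at P0. No member's arrays separated the genotypes at either age, where 2.45% of all genes did at E18.5 (1.74% higher and 0.706% lower) and 0.511% at P0 (0.272% and 0.239%).

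**Figure D3:**
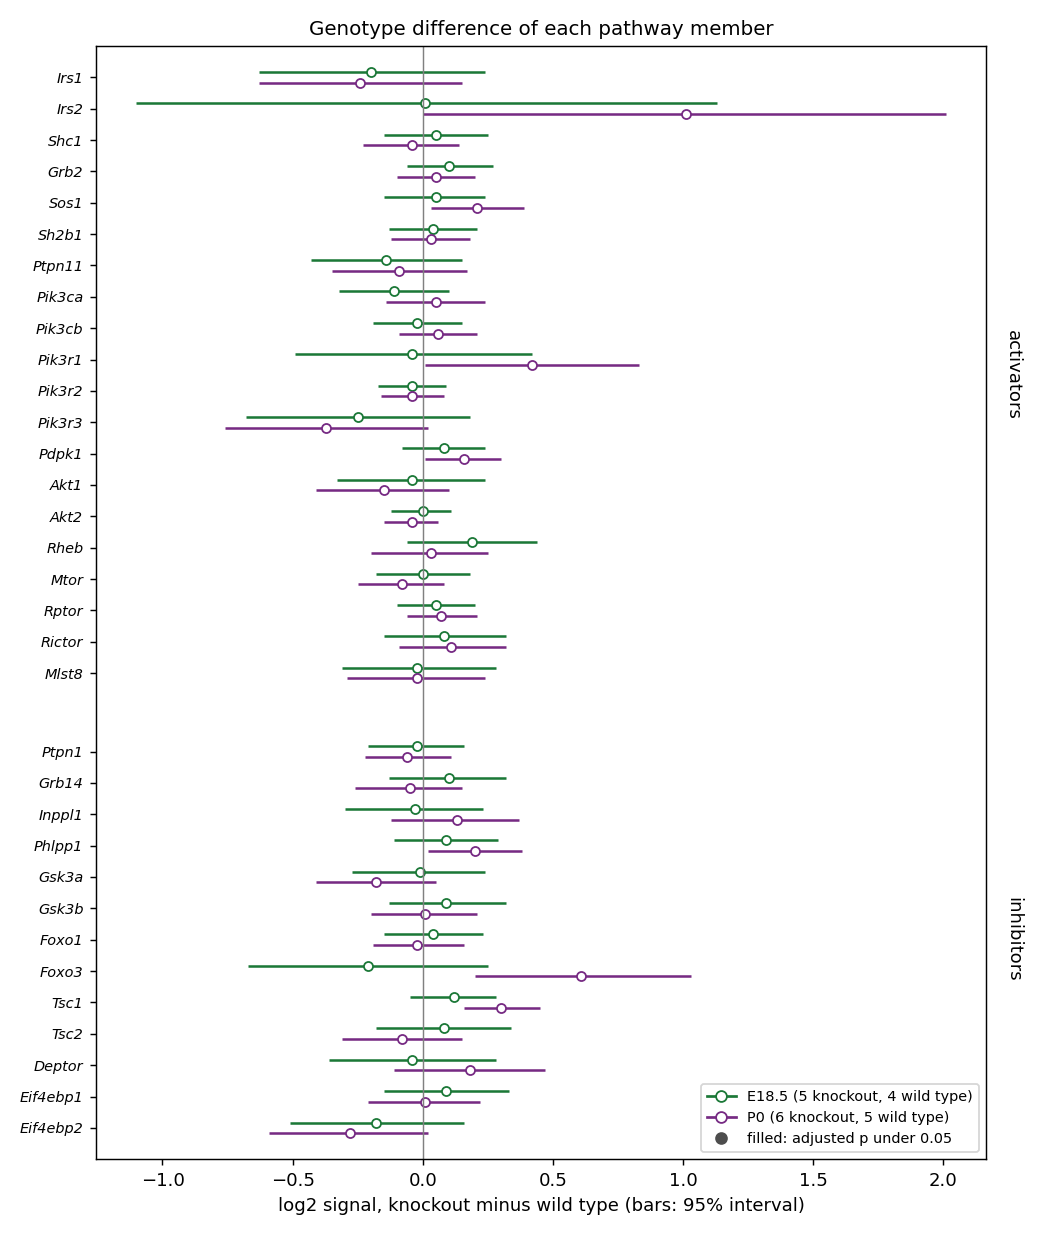
Difference between knockout and wild type in log2 signal (x axis) of each of the 33 members (y axis), at E18.5 (green, 5 against 4 arrays) and P0 (purple, 6 against 5 arrays), with 95% intervals as bars. No point is filled, since no member passed the test, and the widest intervals are those of Irs2.

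At P0 the lowest p-value among members belonged to Tsc1. The Tsc1 values above place all 6 P0 knockouts higher than the wild-type mean, with P0 wild types 3 and 5 inside the knockout range. The difference was 0.30 ± 0.07, with a 95% interval of 0.16 to 0.45 (limma, adjusted p = 0.137). At E18.5 it was 0.12 ± 0.08 with all 5 knockouts above the wild-type mean (limma, adjusted p = 0.959), and averaged over ages 0.21 ± 0.05 (limma, adjusted p = 0.52). The difference between ages was 0.19 ± 0.10 (limma, adjusted p = 0.754). Over the alternatives tried, the P0 difference of Tsc1 ran from 0.26 to 0.35 and its adjusted p from 0.0867 to 0.722.

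Foxo3 was next at P0, at 0.61 ± 0.20 with all 6 knockouts above the wild-type mean (limma, adjusted p = 0.44). At E18.5 all 5 knockouts of Foxo3 lay below the wild-type mean, at -0.21 ± 0.22 (limma, adjusted p = 0.992). Phlpp1 differed at P0 by 0.20 ± 0.09, again with all 6 above the wild-type mean (limma, adjusted p = 0.568), and averaged over ages by 0.15 ± 0.06 (limma, adjusted p = 0.723). For Tsc1, Foxo3, Phlpp1 and Pik3r1 alike, wild types 3 and 5 were the highest of the P0 wild types. Irs2 differed at P0 by 1.01 ± 0.48, with 5 of 6 knockouts above the wild-type mean and an interval from 0.00 to 2.01 (limma, adjusted p = 0.569). At E18.5 Irs2 differed by 0.01 ± 0.53 (limma, adjusted p = 1), and the difference between ages was 0.99 ± 0.71 (limma, adjusted p = 0.812). Pik3r1 differed at P0 by 0.42 ± 0.20 (limma, adjusted p = 0.569), with a difference between ages of 0.46 ± 0.29 (limma, adjusted p = 0.782). Liver marker means ran from 10.14 to 13.99 in P0 knockouts and from 7.91 to 12.34 in P0 wild types. With the liver, intestine and muscle marker means as covariates, 0 members passed at P0, as without them.

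Sos1, the exchange factor that activates Ras, read 8.23, 8.09, 8.16, 7.88 and 8.26 in P0 wild types and ran from 8.19 to 8.53 with a median of 8.34 in P0 knockouts. At E18.5 it read 8.31, 8.29, 8.17 and 8.07 in wild types and 8.32, 8.43, 8.20, 8.33 and 8.01 in knockouts. The 6 P0 knockouts were above the wild-type mean, with the lower ones among the wild types. Sos1 differed by 0.21 ± 0.09 at P0 (limma, adjusted p = 0.53), and this changed between the ages by 0.17 ± 0.13 (limma, adjusted p = 0.829). Pdpk1 read 8.38, 8.26, 8.34, 8.28 and 8.37 in P0 wild types and ran from 8.31 to 8.71 with a median of 8.44 in P0 knockouts. At E18.5 it read 8.40, 8.46, 8.38 and 8.19 in wild types and 8.35, 8.44, 8.53, 8.48 and 8.36 in knockouts. Wild types and knockouts of Pdpk1 overlapped at both ages. The difference was 0.16 ± 0.07 at P0 (limma, adjusted p = 0.568) and 0.12 ± 0.05 averaged over ages (limma, adjusted p = 0.723).

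The members with negative values were led by Pik3r3, the p55 gamma regulatory subunit of PI3K. It read 7.13, 6.51, 6.84 and 6.62 in E18.5 wild types and 6.37, 6.65, 6.60, 6.54 and 6.49 in E18.5 knockouts. At P0 it read 6.85, 7.04, 6.68, 7.40 and 6.84 in wild types and ran from 6.17 to 7.33 with a median of 6.40 in knockouts. All 5 E18.5 knockouts and 4 of 6 P0 knockouts were below their wild-type mean, and the groups overlapped at both ages. The difference was -0.25 ± 0.21 at E18.5 (limma, adjusted p = 0.973), -0.37 ± 0.19 at P0 (limma, adjusted p = 0.584) and -0.31 ± 0.14 averaged (limma, adjusted p = 0.723). Eif4ebp2 read 11.65, 11.61, 11.24 and 11.26 in E18.5 wild types and 10.76, 11.51, 11.50, 10.98 and 11.56 in E18.5 knockouts. Its P0 wild types read 11.25, 11.60, 11.31, 11.54 and 11.82, and its P0 knockouts ran from 11.03 to 11.34 with a median of 11.24. All 6 P0 knockouts of Eif4ebp2 were below the wild-type mean, with the lower wild types among them. The difference was -0.28 ± 0.14 at P0 (limma, adjusted p = 0.587) and -0.23 ± 0.11 averaged over ages (limma, adjusted p = 0.747).

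At E18.5 the lowest p-value belonged to Rheb, the GTPase that activates mTOR complex 1. It read 10.27, 10.30, 10.57 and 10.60 in wild types and 10.70, 10.80, 10.69, 10.53 and 10.41 in knockouts. Its P0 wild types read 10.53, 10.11, 10.46, 10.71 and 10.19, and its P0 knockouts ran from 10.24 to 10.61 with a median of 10.44. Of the E18.5 knockouts of Rheb, 4 of 5 were above the wild-type mean, and at P0 the genotypes covered one range. The difference was 0.19 ± 0.12 at E18.5 (limma, adjusted p = 0.958) and 0.03 ± 0.11 at P0 (limma, adjusted p = 0.972). Grb2, the adaptor that brings SOS to receptors, read 6.67, 6.92, 6.85 and 6.96 in E18.5 wild types and 6.86, 6.81, 6.93, 7.14 and 7.03 in E18.5 knockouts. At P0 it read 6.91, 6.86, 6.86, 6.77 and 6.83 in wild types and ran from 6.74 to 7.03, with a median of 6.89, in knockouts. The Grb2 groups overlapped, with a difference of 0.10 ± 0.08 at E18.5 (limma, adjusted p = 0.967) and 0.05 ± 0.07 at P0 (limma, adjusted p = 0.874). Pik3ca differed by -0.11 ± 0.10 at E18.5 (limma, adjusted p = 0.982) and 0.05 ± 0.09 at P0 (limma, adjusted p = 0.899). The 3 core kinase genes and Rptor had intervals that spanned 0. At P0 the 95% interval of Akt2 ran from -0.15 to 0.06, that of Mtor from -0.25 to 0.08 and that of Rptor from -0.06 to 0.21, and that of Akt1 was wider, from -0.41 to 0.10.

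**Figure D4:**
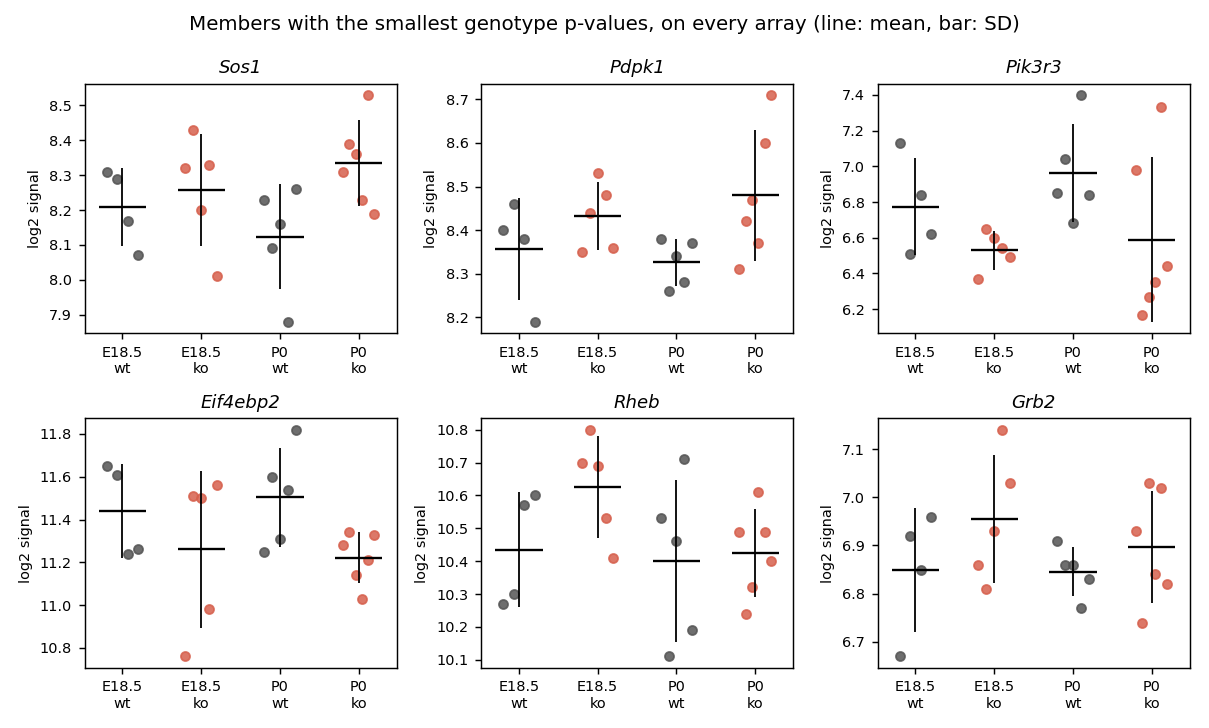
Log2 signal (y axis) of 6 further members with low genotype p-values, on every array of the 4 groups (x axis), wild type in grey and knockout in red, with the mean as a line and the SD as a bar. In each panel knockouts and wild types of the same age overlap, and none of the 6 passed the test.

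The members varied in how tightly their arrays agreed. The residual SD had a median of 0.163 over the 33 members, from 0.07 to 0.83, against 0.204 over all genes tested. Irs2 had the widest spread, 0.83, at percentile 98.8 of all genes. Foxo3 followed at 0.34 and percentile 84.4, Pik3r1 at 0.34 and percentile 83.9, Irs1 at 0.32 and percentile 81.9 and Pik3r3 at 0.32 and percentile 81.5. Akt2 was among the tightest, with an SD of 0.02 in E18.5 knockouts (n = 5) and 0.02 in E18.5 wild types (n = 4).

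Paralogues and complex partners were compared within arrays, as the log2 difference of 1 from the other, in 11 pairs and 4 comparisons. In 44 two-sided exact permutation tests, 0 passed after Benjamini-Hochberg adjustment over the 44. The smallest p the group sizes allow is 0.0159 at E18.5 and for age in wild types, and 0.00433 at P0 and for age in knockouts. A single test could therefore not pass by itself after adjustment over the 44, however far apart its groups lay. The count of 0 does not show that no pair moved. The smallest adjusted p, reached by 10 tests, was 0.0762. Foxo3 minus Foxo1 was -1.71 ± 0.12 (SD, n = 5) in E18.5 knockouts and -0.86 ± 0.31 (SD, n = 6) in P0 knockouts, and these did not overlap (exact p = 0.00433). In wild types it was -1.46 ± 0.10 (SD, n = 4) and -1.49 ± 0.43 (SD, n = 5) (exact p = 0.984). Between genotypes the same quantity differed by -0.25 at E18.5 (exact p = 0.0159), where the groups did not overlap, and by 0.63 at P0 (exact p = 0.00866), where they did. Tsc1 minus Tsc2 moved with age by 0.38 in wild types (exact p = 0.0159) and 0.73 in knockouts (exact p = 0.00433), without overlap in either. Rictor minus Rptor moved by 0.43 in both (exact p = 0.0159 and 0.00866), and overlapped in knockouts. Eif4ebp1 minus Eif4ebp2 moved by -0.55 (exact p = 0.0159) and -0.54 (exact p = 0.0173). Irs2 minus Irs1 moved by -1.49 in wild types (exact p = 0.0159) and -0.45 in knockouts (exact p = 0.506). For Akt1 minus Akt2 and Pik3ca minus Pik3cb, the differences lay between -0.11 and 0.12 in all 4 comparisons.

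Other genes of insulin, Ras and mTOR signalling, 72 by name, gave 55 tested genes. For genotype 0 of 55 passed at E18.5, at P0, averaged over ages or for the difference between ages. With age, 8 of 55 passed in wild types, 5 higher and 3 lower, and 21 in knockouts, 12 higher and 9 lower. That is 14.5% and 38.2%, beside 8.86% and 23% of all genes. Gab2, a docking protein that recruits PI3K, rose by 0.80 ± 0.19 in wild types (limma, adjusted p = 0.0148) and 1.37 ± 0.17 in knockouts (limma, adjusted p = 5.29e-05). Sos2, the relative of Sos1, rose by 0.49 ± 0.12 in wild types (limma, adjusted p = 0.0186). Lamtor2 and Lamtor4, subunits of the lysosomal anchor of mTOR complex 1, fell in wild types by 0.92 ± 0.20 (limma, adjusted p = 0.00948) and 0.50 ± 0.14 (limma, adjusted p = 0.0386), and Lamtor2 in knockouts by 1.12 ± 0.18 (limma, adjusted p = 0.000398). Lamtor4 also passed as lower in knockouts. That call was lost with the running sample number as a covariate (-0.52, limma, adjusted p = 0.157) and with the marker covariates (-0.49, limma, adjusted p = 0.0902). It was also lost without the marker-rich arrays (-0.57, limma, adjusted p = 0.0548). Sgk1, an AKT-related kinase activated by mTOR complex 2, rose by 1.70 ± 0.33 in knockouts (limma, adjusted p = 0.00133), with 1 ± 0.36 in wild types (limma, adjusted p = 0.0922). Nprl2, part of a complex that restrains mTOR complex 1, fell by 0.78 ± 0.25 in knockouts (limma, adjusted p = 0.0288) and did not pass in wild types. With array weights, wild types passed for Nprl2 (-0.75, limma, adjusted p = 0.0481) and Sgk1 (1.06, limma, adjusted p = 0.0456). Without P0 wild type 4 they also passed, at -0.93 (limma, adjusted p = 0.015) and 1.24 (limma, adjusted p = 0.0393). Several age calls of this list were lost in some fits, with differences of similar size for most. In wild types Lamtor4 missed the threshold with no filter (limma, adjusted p = 0.056), with only the arrays compared and with either set of covariates. The same held with the replicate number as a block (limma, adjusted p = 0.07) and without any 1 of E18.5 wild types 1 to 3 or P0 wild types 3 to 5. Gab2 missed it in wild types with either set of covariates and without E18.5 wild type 1 (limma, adjusted p = 0.053). Sos2 did so with either set of covariates, with only the arrays compared and without E18.5 wild type 3 (limma, adjusted p = 0.0573), and Lamtor2 with only the arrays compared (limma, adjusted p = 0.0557). In knockouts Nprl2 missed it with either set of covariates and with the replicate number as a block (limma, adjusted p = 0.0755). It also did so without E18.5 knockout 2 or 4 or P0 knockout 1, 4 or 5. Without the marker-rich arrays the knockout differences were 1.70 for Sgk1 (limma, adjusted p = 0.0685), -0.98 for Lamtor2 (limma, adjusted p = 0.0567) and -0.52 for Nprl2 (limma, adjusted p = 0.49). At P0 the lowest genotype p-values of this list were those of Pik3c3, the class III PI3K, at 0.42 ± 0.11 (limma, adjusted p = 0.231), and of Inpp4b, a lipid phosphatase, at -0.29 ± 0.08 (limma, adjusted p = 0.376). Prkaa1 and Pik3c2b followed, at 0.36 ± 0.13 and -0.21 ± 0.08. At E18.5 they were those of Map2k1 at 0.21 ± 0.10 (limma, adjusted p = 0.911), Dusp6 at -0.19 ± 0.10, Cbl at -0.98 ± 0.49 and Gab2 at -0.34 ± 0.19. Averaged over ages, Inpp4b at -0.16 ± 0.06, Cbl at -0.87 ± 0.33, Pik3c3 at 0.20 ± 0.08 and Pik3c2b at -0.13 ± 0.06 came first (limma, adjusted p of 0.677 to 0.723). For the difference between ages they were Pik3c3 at 0.45 ± 0.16, Gab2 at 0.57 ± 0.26, Map2k1 at -0.27 ± 0.13 and Inpp4b at -0.25 ± 0.12 (limma, adjusted p of 0.634 to 0.724).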

How the data were processed

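Pancreas RNA of 20 mouse samples was amplified and hybridised, 1 array each. Per the submitters' processing notes, the authors summarised the arrays with RMA in Affymetrix Expression Console 1.4.1.46, which corrects background, normalises between arrays and gives log2 values. The deposited log2 values run from 2.173 to a ceiling of 19.932, shared by 261 to 278 probe sets per array. No member lies near it. The array's genome build is not given in the sources used here. Of 65956 probe sets, 30604 had a single symbol, updated through RefSeq on GRCm38.p6, 2146 several and 33206 none.

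A mean per group was fitted to all 20 arrays in limma (version 3.58.1, R version 4.3.3), with 16 residual degrees of freedom, or 17.9 after moderation. The filter, the call threshold and the 6 contrasts are given above. Tests were two-sided, with Benjamini-Hochberg adjustment over 17993 genes, and the code was tested on simulated data. Members and lists were chosen with earlier results of these data known. Values were named for every called member, or the 5 members with the lowest p of a genotype contrast. From the other pathway genes up to 4 were named per contrast. Replicate numbers were not treated as pairs, since same-numbered samples did not deviate together in every pair.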

Additional observations from a re-analysis of the deposited data

Results flagged for a closer look

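In 7 of 132 combinations of a member and a group, 1 array lay apart from the others of its group by a Dixon test. Chance alone gives about 1 in 20 such groups, or 6.6 here. In E18.5 knockouts these were Pik3r1, at 10.73 in replicate 5 against 10.19 to 10.34 in the others, Akt2, at 7.78 in replicate 2 against 7.72 to 7.74, Mtor, at 6.97 in replicate 2 against 6.68 to 6.76, and Deptor, at 8.08 in replicate 1 against 8.65 to 8.81. Of the 5 E18.5 knockouts, replicates 1, 2 and 4 are rich in intestine or muscle markers, and replicate 5 is not. Replicate 5 had the highest liver marker mean of the 5, 13.54 against 10.12 to 11.47 in the others. Whether these marker levels bear on the flagged values was not tested. In E18.5 wild types it was Pik3r1, at 10.20 in replicate 3 against 10.45 to 10.47. In P0 wild types they were Sh2b1, at 5.33 in replicate 1 against 5.46 to 5.51, and Foxo1, at 9.22 in replicate 5 against 8.79 to 8.87.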

How the results depend on the processing

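No member passed a genotype test, or the test of the difference between ages, under any alternative tried. Of the members that passed for age, 1 of 3 still passed in wild types when only the arrays compared were fitted, and without 1 replicate at a time 2 to 4 passed. In knockouts, where 8 passed, 3 did with the running sample number as a covariate, 3 with the liver, intestine and muscle marker means as covariates, and 2 without the 5 arrays rich in intestine or muscle markers, an alternative chosen after seeing the data that leaves 2 E18.5 knockouts. Without 1 replicate at a time, 5 to 9 passed, with 5 when E18.5 knockout 4 was left out. With the replicate number as a block, 3 passed in wild types and 6 in knockouts. With no signal filter, Pik3r1 and Mlst8 lost their calls in knockouts. Lost calls mostly kept their size. With the marker covariates Foxo3 differed by 0.83 (limma, adjusted p = 0.0572) and Gsk3a by -0.43 (adjusted p = 0.0667), and Phlpp1 by 0.23 (adjusted p = 0.192). With the running sample number Foxo3 differed by 1.04 (limma, adjusted p = 0.0584), Gsk3a by -0.44 (adjusted p = 0.152), Pik3r1 by 0.87 (adjusted p = 0.104) and Phlpp1 by 0.31 (adjusted p = 0.214). Deptor passed in wild types when arrays were quantile-normalised again (limma, adjusted p = 0.0358). No member changed direction in a called comparison, and the causes of these shifts were not tested. Counts over all genes moved too, from 4139 to 475 for age in knockouts without the marker-rich arrays, from 1594 to 788 for age in wild types with marker covariates, from 2 to 45 for genotype at P0 without P0 knockout 1, and from 0 to 34 for the difference between ages without P0 wild type 1. The group sizes limit what could be detected, and members near the array medians, such as Sh2b1 and Pik3r2, may have compressed differences.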
